A study of Mus musculus with 10 samples.

Results

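Ace and 8 genes that share its place at the apical membrane or its substrates were followed in cholangiocytes (bile duct epithelium) of the mouse, grown in 2 extracellular matrices. The 9 genes were angiotensinogen (Agt), the peptidases Ace, Enpep, Anpep, Mme and Dpp4, the transferase Ggt1, and the microvillus-associated genes Tmigd1 and Vil1. They were picked by symbol, after the difference between the matrices was known, from the 18407 genes of the count table, and all 9 were found. Their differences between the matrices are therefore given as a description, with no test of their own. The cells were the NMC line (normal mouse cholangiocytes), grown untreated for 6 days as 3D double spheroids. In the collagen group (5 libraries) the matrix was collagen I at 1 mg/mL. In the laminin group (5 libraries) it was laminin and collagen I at 3:1 by volume, so that collagen I was present in both groups. All libraries come from 1 cell line. The series calls them biological replicates without saying whether they were separate cultures. P-values then measure only the spread between these libraries, which may be technical.

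Angiotensinogen is the precursor protein from which renin releases angiotensin I. Angiotensin-converting enzyme, the product of Ace, removes a dipeptide from angiotensin I to give angiotensin II, and it also inactivates bradykinin. The other peptidases trim the same and other peptides at the cell surface: aminopeptidase A (Enpep) and aminopeptidase N (Anpep) from the amino end, neprilysin (Mme) within the chain, and dipeptidyl peptidase 4 (Dpp4) by removing amino-terminal dipeptides. In kidney, gut and bile duct epithelium such ectopeptidases sit on the apical brush border, whose microvilli are built on actin bundles held by villin.

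Ace, Anpep, Enpep and Mme are zinc peptidases. Their catalytic site carries a short run of histidine, glutamate, any 2 residues and histidine. The codons of that run are shown for these enzymes, which were set in advance, with 12 coding bases in lower case on each side. They were read in frame from the longest coding transcript of each gene in GENCODE M21 (GRCm38), and the capitals mark the 5 codons:
Ace, first domain: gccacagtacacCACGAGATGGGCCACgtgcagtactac
Ace, second domain: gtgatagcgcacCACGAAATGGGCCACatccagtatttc
Anpep: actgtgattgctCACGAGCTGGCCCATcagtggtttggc
Enpep: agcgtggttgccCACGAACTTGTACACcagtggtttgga
Mme: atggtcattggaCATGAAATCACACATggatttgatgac
Dpp4, serine site: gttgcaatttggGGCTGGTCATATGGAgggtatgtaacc
The Dpp4 capitals mark the run of glycine, tryptophan, serine, tyrosine and glycine around the active serine. Ace held the zinc run once in each catalytic domain, at codons 395 and 993 of 1312, on the plus strand at chr11:105972898-105972936 in exon 8 and chr11:105985082-105985120 in exon 20 of 25. That of Mme lay at chr3:63362009-63362047 (plus strand, exon 18 of 23). The printed stretches of the other genes cross an exon junction on the minus strand: Anpep at chr7:79838993-79839192 (exons 6 and 7), Enpep at chr3:129309127-129309798 (exons 5 and 6) and Dpp4 at chr2:62347897-62348518 (exons 21 and 22). An in-frame match to the zinc run occurs in 711 of 21838 coding genes (3.26%), 2 or more times in 147, so the letters alone do not mark a peptidase.

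Total counts ran from 4424725 to 8129979 per library. A count of 0 allowed up to 3 counts, or 0.365 to 0.691 counts per 1000000 reads (CPM) in these libraries, counting error only. After the filter on low counts, 10789 genes were tested, and 8 of the 9 genes were among them. Ggt1, with 15 reads in all, was not. Of the genes tested, 16 passed at an adjusted p under 0.05 (0.148%), 15 higher (0.139%) and 1 lower (0.00927%) in laminin, in edgeR's quasi-likelihood test. Ace was the 1 of 8 that passed. Among the 8, 6 had a log2 difference above 0, with a median of 0.73, against 51.7% and a median of 0.0094 over all genes tested. Since this contrast led to their choice, nothing is read from these counts. Over all genes tested, 11.7% had an unadjusted p under 0.05 in edgeR, 6.7% higher and 4.95% lower in laminin. The matching share is given in the paragraph of each list below. In bulk RNA of this kind, fewer cells of a type and less RNA per cell cannot be told apart.

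Agt, the substrate at the head of the angiotensin pathway, stood at 9.18, 5.53, 10.2, 11.0 and 10.4 CPM in collagen replicates 1 to 5. In laminin it stood at 9.80, 14.9, 15.7, 23.5 and 17.3 CPM. Laminin replicate 1 lay inside the collagen range, and the other 4 laminin libraries were above it. The log2 difference, laminin minus collagen, was 0.80 (SE 0.24), from 9.27 ± 2.19 to 16.2 ± 4.95 CPM (SD, n = 5 per group). Agt is best known as a hepatocyte product. Hepatocyte markers are therefore given beside it. Summed over the 17 listed markers found in the table they ran from 89.7 to 138 CPM in collagen and from 136 to 194 CPM in laminin. Of these 17, 12 averaged under 1 CPM, and the defining enzymes Cyp3a11 and Cyp2e1 were at 0 in every library. Most of the sum was Hnf4a, which averaged 80.0 and 109 CPM, is also counted among the brush border factors here, and was lowest among laminin libraries in replicate 4, where Agt was highest. The 3 markers tested were Hnf4a, Alb and Ttr. In edgeR and DESeq2 0 of them passed. All 3 had an unadjusted p under 0.05 in edgeR and were higher in laminin, as were 6.7% of all genes tested. Alb, the serum albumin gene, averaged 18.8 and 35.5 CPM in collagen and laminin, and like Agt was highest in laminin replicate 4 (62.0 CPM). Ttr, the transthyretin gene, averaged 6.26 and 11.8 CPM (log2 difference 0.95, SE 0.40, edgeR adjusted p = 0.380). The part of hepatocyte-type expression in the Agt values was not tested.

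Ace was the gene of the 9 whose groups did not overlap. Its counts gave 19.1, 16.8, 17.4, 14.7 and 18.9 CPM in collagen replicates 1 to 5, and 25.5, 35.1, 36.5, 38.8 and 43.1 CPM in laminin replicates 1 to 5. Each laminin library was above each collagen library, and laminin replicate 1 was the closest to collagen. The means were 17.4 ± 1.80 and 35.8 ± 6.52 CPM (SD, n = 5 per group), a log2 difference of 1.04 (SE 0.15) or 2.05-fold. Group ranges also failed to overlap for 349 of the 10789 genes tested (3.23%, of which 1.94% with laminin higher and 1.3% with laminin lower), and for no other of the 8. Over 22 alternative fits the log2 difference of Ace ran from 0.88 to 1.21. Ace passed the threshold in 12 of these fits, a description only, since this contrast led to the choice of the genes. The 10 in which it did not pass were those with the replicate number as a block, those that left out replicate 2, 3 or 5 of either group, and those that left out the libraries of code letter D, E or F. Ace lies at chr11:105967945-105989964 in GRCm38, and its exons overlap those of Gm11651 on the opposite strand. Whether counting used strand is not given in the sources used here, so reads of the pair may not be separated. No counts are given under the symbol Gm11651, so the size of any such mixing is unknown.

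Endothelium is another known source of Ace. Of 15 endothelial markers, Cdh5, Kdr, Emcn, Cldn5, Erg and Robo4 had no read in any library, and 11 of 15 averaged under 1 CPM. Pecam1 reached 0.276 CPM in collagen and 0.350 CPM in laminin on average, under the level of 3 reads. The endothelial sum ran from 332 to 664 CPM in collagen and from 536 to 663 CPM in laminin. Nearly all of it was Flt1, a VEGF receptor, which averaged 490 and 571 CPM in the groups (log2 difference 0.22, SE 0.18). The other endothelial marker tested, the adhesion molecule gene Esam, was in the other direction, with means of 3.08 and 1.22 CPM in collagen and laminin (-1.25, SE 0.41, edgeR adjusted p = 0.273). In edgeR and DESeq2 0 of these 2 passed. Esam was lower at an unadjusted p under 0.05 in edgeR, as were 4.95% of all genes tested. The part of endothelial expression in the Ace values was not tested.

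RefSeq (GRCm38.p6) lists 2 transcription starts for Ace, and the gene-level counts do not separate them. The second window lies inside the gene, at chr11:105974939-105975188. The 250 bases before the first start, and those before the start of Tmigd1 that begins the GENCODE gene, are shown because these genes had the largest log2 differences of the 9 relative to their SE. Capitals mark matches on either strand to the TATA-box motif TATAAA. They also mark the motif TTTATG, bound by the intestinal factor CDX2:
Ace, chr11:105967698-105967947, plus strand: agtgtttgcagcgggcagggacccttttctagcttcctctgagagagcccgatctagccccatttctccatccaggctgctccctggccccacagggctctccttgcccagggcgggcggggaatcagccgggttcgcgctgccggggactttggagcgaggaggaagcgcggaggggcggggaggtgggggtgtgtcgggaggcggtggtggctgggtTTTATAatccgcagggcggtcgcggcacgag
Tmigd1, chr11:76901909-76902158, plus strand: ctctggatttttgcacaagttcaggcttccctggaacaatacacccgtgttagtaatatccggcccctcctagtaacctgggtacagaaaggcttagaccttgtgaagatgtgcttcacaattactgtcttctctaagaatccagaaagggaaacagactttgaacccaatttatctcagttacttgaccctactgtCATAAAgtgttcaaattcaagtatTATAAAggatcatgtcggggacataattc
The TATAAA match of Ace begins 31 bases before the start on the opposite strand, and that of Tmigd1 29 bases before it. A CDX2-type match begins 53 bases before the Tmigd1 start. TATAAA occurs in 12.4% of 32851 such windows of all genes and in 6 of the 16 windows of these 9 genes. TTTATG occurs in 10.8% of all windows and in 1 of the 16. The HNF4 site CAAAGTCCA (0.384% of all windows) was in none of the 16, which says only that these letters are not in these windows.

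The aminopeptidases had no common direction. Enpep, which converts angiotensin II to angiotensin III, was at 23.0, 14.3, 15.9, 11.8 and 14.3 CPM in collagen replicates 1 to 5. In laminin replicates 1 to 5 it was at 16.7, 21.4, 10.2, 45.3 and 21.2 CPM. The laminin libraries held both the lowest and the highest value of the 10, and the log2 difference was 0.53 (SE 0.33). Without laminin replicate 4 it was 0.097, and without both letter F libraries (laminin replicates 4 and 5) it was -0.0058. Anpep, the most abundant of the group per length, was at 35.9, 47.5, 49.6, 52.3 and 50.4 CPM in collagen and at 27.7, 27.6, 33.7, 59.6 and 34.8 CPM in laminin. Laminin replicate 4 was the highest of all 10 libraries, and the other 4 laminin libraries were below every collagen library. The log2 difference of Anpep was -0.36 (SE 0.20) with all libraries and -0.63 without laminin replicate 4, and it was -0.013 with that library and replicate 5 as the only laminin libraries.

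Mme, the endopeptidase neprilysin, was at 18.8, 16.6, 14.3, 8.75 and 8.98 CPM in collagen and at 13.7, 24.3, 23.2, 22.9 and 23.3 CPM in laminin. Of the laminin libraries, replicate 1 alone fell inside the collagen range. The log2 difference was 0.66 (SE 0.23). Collagen replicates 4 and 5 were the lowest libraries, and they share the letter D of the library code, while replicates 1 to 3 share letter B. The labels leave the letters unexplained. As each letter was used in 1 matrix, whatever the letters stand for and the matrix cannot be told apart. Within collagen, where no difference in matrix exists, Mme was lower in D than in B by a log2 difference of -0.90 (SE 0.26, edgeR adjusted p = 0.0403). Between these letters 1708 genes (15.8%) passed, and Mme was the 1 of the 8. It no longer passed when collagen replicate 1, 2, 4 or 5, or laminin replicate 2 or 3, was left out, or with the length and GC trend removed. Its longest transcript, 8039 nt, is the longest of the group. The matrix difference of Mme was 0.37 without the letter D libraries and 1.24 without letter B. Vil1 gave 1.62 (SE 0.58, edgeR adjusted p = 0.0663) for D minus B and did not pass. Within laminin, replicates 1 to 3 carry letter E and replicates 4 and 5 letter F, and 0 of the 8 genes passed for F minus E in edgeR (0% of all genes). At an unadjusted p under 0.05 were 4 of the 8, where 3.84% of all genes were. These were Enpep (log2 difference 1.07, SE 0.34), Dpp4 (0.93, SE 0.38), Anpep (0.68, SE 0.22) and Agt (0.62, SE 0.27), each higher in F. Of the F libraries, replicate 4 was far the higher for Enpep, Dpp4 and Anpep.

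Dpp4 and Ggt1 were scarce. Dpp4, which inactivates incretin hormones and many chemokines, was at 4.09, 4.28, 4.01, 3.26 and 2.57 CPM in collagen and at 1.82, 2.00, 1.92, 4.95 and 2.07 CPM in laminin. As with Anpep, laminin replicate 4 was the highest library and the other 4 were below every collagen library. The log2 difference was -0.50 (SE 0.31) with all libraries and -0.92 without laminin replicate 4, when laminin stood at 1.95 ± 0.109 CPM (SD, n = 4). The values rest on 9 to 33 reads per library. Ggt1, whose product starts the breakdown of extracellular glutathione, had 0 to 2 reads in each collagen library and 0 to 5 in each laminin library. Mean levels of Ggt1 were under that of 3 reads in both groups, so no fold is given.

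The microvillus-associated genes were both higher on average in laminin, at low levels. Tmigd1, an epithelial adhesion molecule of the immunoglobulin family, was at 2.12, 3.57, 2.31, 4.48 and 3.53 CPM in collagen. In laminin replicates 1 to 5 it was at 11.6, 11.3, 12.2, 4.05 and 12.7 CPM. Replicate 4 lay inside the collagen range, and the other 4 laminin libraries were close together, at 11.9 ± 0.618 CPM (SD, n = 4). The log2 difference was 1.71 (SE 0.32), the largest of the 8, and 1.90 without replicate 4. It ran from 1.34 to 1.96 over the 22 alternatives. Vil1, which encodes the actin bundler villin, was at 0.847, 0.893, 0.486, 2.85 and 1.76 CPM in collagen and at 2.94, 3.45, 2.40, 1.05 and 3.69 CPM in laminin. The groups overlapped through collagen replicate 4 and laminin replicate 4. The log2 difference of Vil1 was 1.03 (SE 0.46), 1.85 without the letter D libraries and 0.20 without letter B. Vil1 exons overlap those of Usp37 on the opposite strand, which was far more abundant (88.8 CPM in collagen and 92.6 CPM in laminin), so Vil1 values are uncertain to the extent that counting ignored strand. Exons of Dpp4 likewise overlap Gm13561, and no counts are given under that symbol. In GRCm38 the genes other than Ace lie on different chromosomes for the most part. Agt spans chr8:124556534-124569706, Anpep chr7:79821803-79861059, Dpp4 chr2:62330073-62412231, Ggt1 chr10:75561604-75586200 and Vil1 chr1:74409376-74435559. Enpep (chr3:129269175-129332720) and Mme (chr3:63241537-63386030) share chromosome 3, and Tmigd1 (chr11:76902159-76916587) shares chromosome 11 with Ace. The table gives 1 value per gene, so exons and UTRs are not separated.

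**Figure D1:**
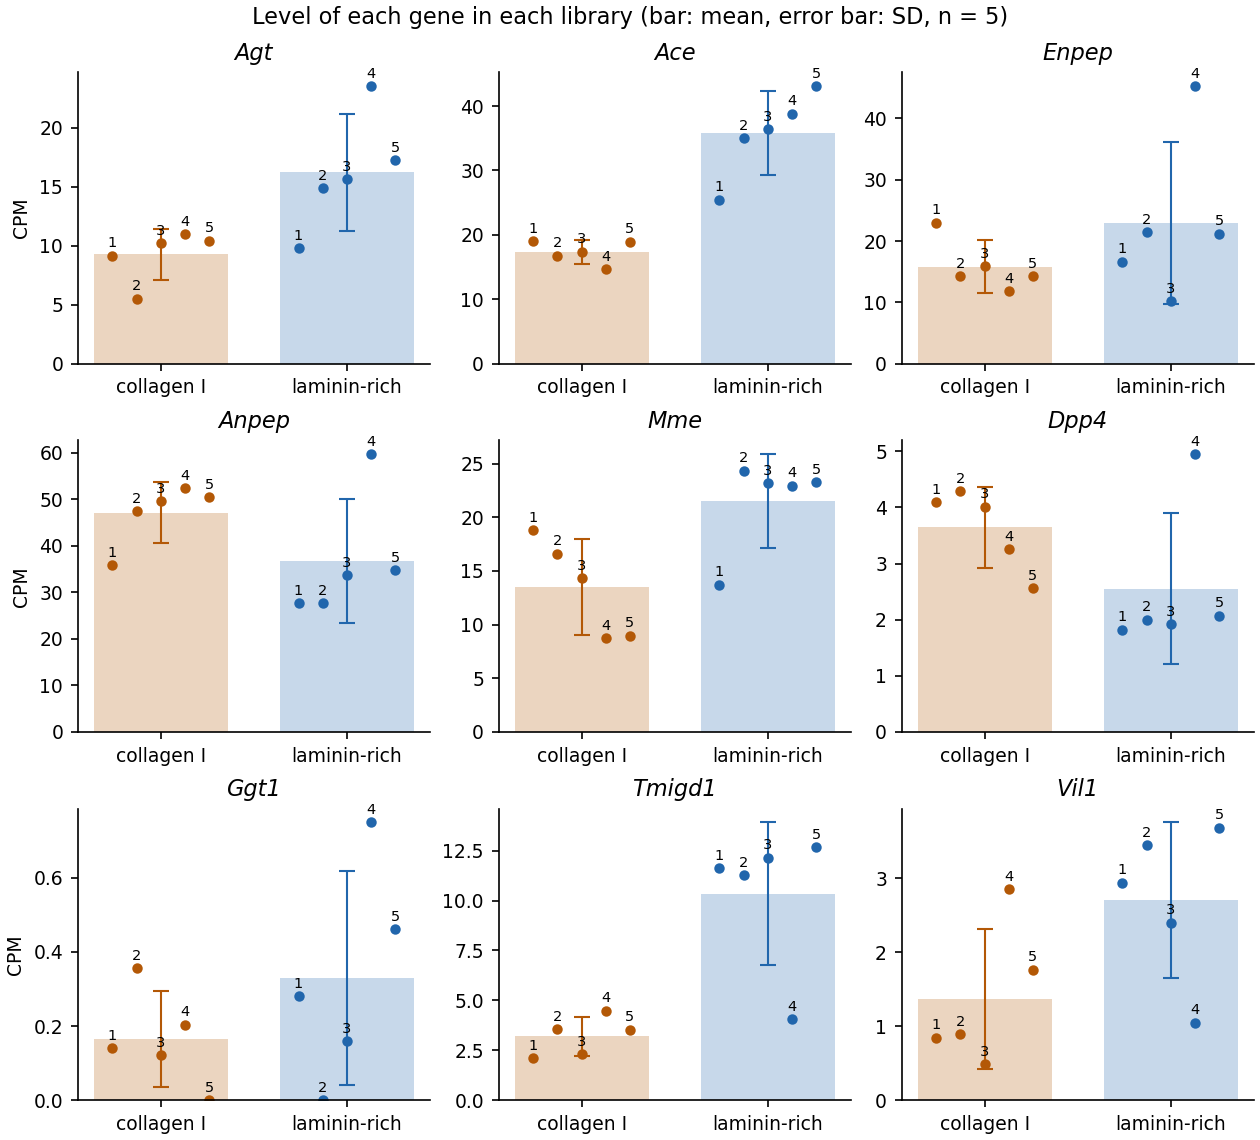
CPM of the 9 genes in each library, with numbers for replicates, bars for the mean and error bars for the SD (n = 5 per group). Ace separates the groups completely, while laminin replicate 4 is the highest laminin library for Agt, Enpep, Anpep and Dpp4 and the lowest for Tmigd1 and Vil1.

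Laminin replicate 4 was thus the extreme laminin library for 6 of the 8 genes tested. It was the extreme laminin library for 48% of all genes tested, and laminin replicates 1, 2, 3 and 5 for 43.3%, 27%, 36.2% and 45.5%. The direction split by gene. The peptidases Enpep, Anpep and Dpp4 and the substrate Agt were highest there, by 1.14, 0.76, 0.97 and 0.58 log2 units above the laminin mean. Tmigd1 and Vil1 were lowest there, by -1.19 and -1.05. Ace, at 0.14 above the laminin mean, and Mme, at 0.12, were near the middle. Laminin replicate 1 was lowest for Ace, Agt, Mme and Dpp4. Without laminin replicate 4, the ranges of Ace, Tmigd1, Anpep and Dpp4 did not overlap between the groups, 4 of 8, where 5.63% of all genes did not overlap. Here too the contrast chose the genes, so the count is a description.

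**Figure D2:**
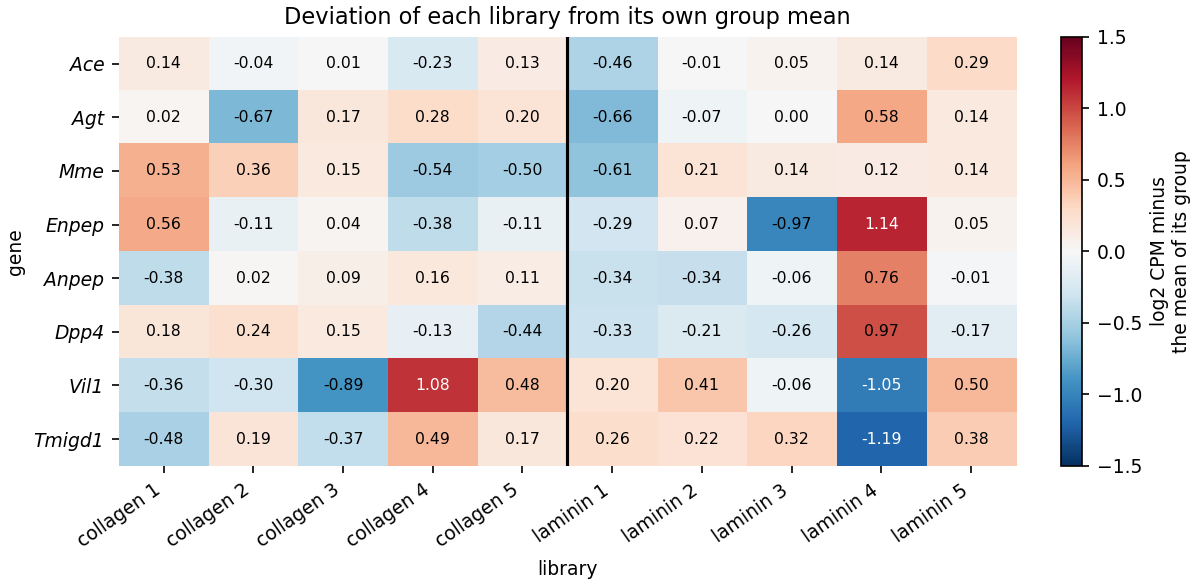
Deviation of log2 CPM from the mean of its own group for the 8 genes tested, by library, with the line between collagen (left) and laminin (right). In laminin replicate 4, Enpep is at 1.14 and Tmigd1 at -1.19, while the largest deviation of Ace is -0.46, in laminin replicate 1.

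Per kilobase of the longest transcript, Anpep was the most abundant of the 9 in collagen, at 12.4 ± 1.72 CPM per kilobase (SD, n = 5). There followed Agt (4.90 ± 1.16), Enpep (3.79 ± 1.02), Ace (3.54 ± 0.368), Tmigd1 (2.24 ± 0.687), Mme (1.68 ± 0.560), Dpp4 (0.692 ± 0.136), Vil1 (0.438 ± 0.305) and Ggt1 (0.0760 ± 0.0602). In collagen the steps from Anpep to Agt, from Ace to Tmigd1 and from Mme to Dpp4 exceeded the spread, in that mean ± SD intervals did not overlap, and other neighbours overlapped. In laminin the order was Anpep (9.67 ± 3.49), Agt (8.58 ± 2.62), Ace (7.29 ± 1.33), Tmigd1 (7.25 ± 2.498), Enpep (5.49 ± 3.17), Mme (2.67 ± 0.544), Vil1 (0.866 ± 0.336), Dpp4 (0.484 ± 0.255) and Ggt1 (0.152 ± 0.133). There the step from Mme to Vil1 was the one whose intervals did not overlap. Anpep thus stood apart from the rest in collagen, while in laminin the first 5 genes overlapped in a chain.

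**Figure D3:**
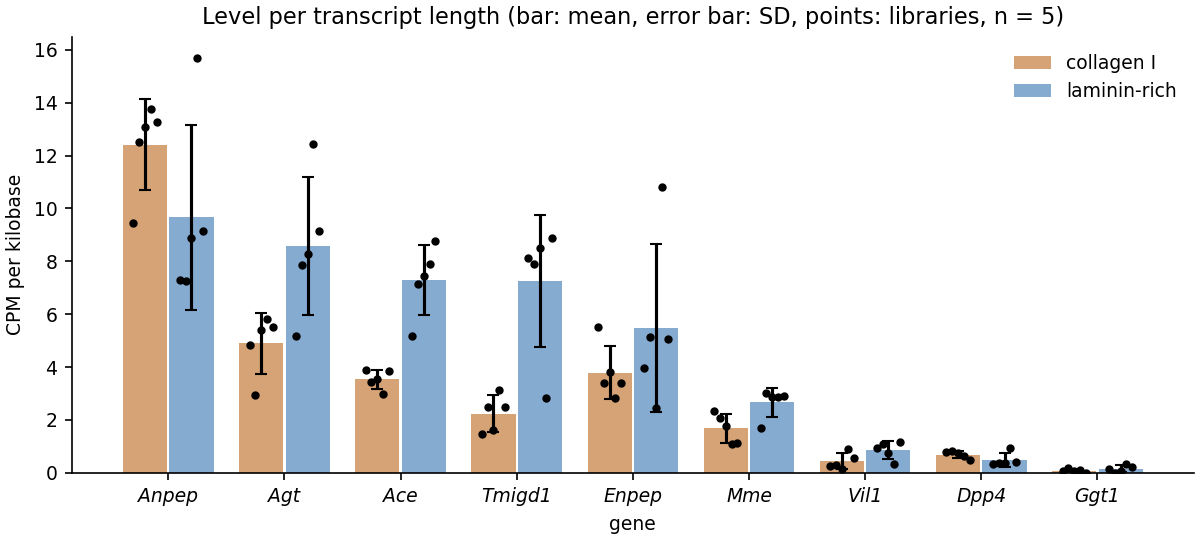
CPM per kilobase of the longest transcript for the 9 genes, with bars for the mean, error bars for the SD and points for libraries (n = 5 per group). Anpep leads in both groups, at 12.4 in collagen and 9.67 in laminin, and Ace moves from 3.54 to 7.29.

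The rest of the renin-angiotensin system was thinly represented. Of 17 further genes, Ren1 (renin), the angiotensin receptors Agtr1a, Agtr1b and Agtr2, the angiotensin(1-7) receptor Mas1, Mrgprd, and the leukocyte proteases Ctsg and Cpa3 had no read in any library. A count of 0 allows up to 0.365 to 0.691 CPM. Another, Cma1, was too low to test. Of the 8 tested, 0 passed in edgeR's quasi-likelihood test (adjusted p from 0.109 to 0.938), and 3 had an unadjusted p under 0.05, 2 higher and 1 lower. Over all genes 11.7% had an unadjusted p under 0.05, 6.7% higher and 4.95% lower. In DESeq2, 1 of the 8 passed. The median log2 difference of these 8 was 0.11, with 5 of 8 above 0, against 0.0094 and 51.7% over all genes tested.

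Atp6ap2, the prorenin receptor and a proton pump subunit, averaged 145 and 180 CPM in collagen and laminin (log2 difference 0.32, SE 0.10, edgeR adjusted p = 0.254). Ctsa, a lysosomal carboxypeptidase, gave 0.27 (SE 0.14). The oligopeptidases Prep and Thop1, which are largely cytosolic, gave -0.21 (SE 0.097) and -0.24 (SE 0.18).

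Kinins are the other classical substrates of the enzyme encoded by Ace. Of 8 kinin-system genes, 2 were abundant enough to test and 0 passed (edgeR adjusted p 0.366 and 0.374), with both at an unadjusted p under 0.05 and 0 passing in DESeq2. At that unadjusted p were 11.7% of all genes tested. Cpm, a membrane carboxypeptidase, averaged 13.4 and 20.2 CPM in collagen and laminin (log2 difference 0.61, SE 0.25). Cpn1, the catalytic chain of a plasma carboxypeptidase, was at 11.0 and 6.40 CPM (-0.78, SE 0.33). The kinin receptor Bdkrb2 averaged 0.413 CPM in collagen and 0.324 CPM in laminin, near or below the level of 3 reads. Single libraries were higher, up to 6 reads (1.07 CPM) in collagen replicate 2.

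Among 34 other peptidases of the cell surface, 10 had no read in any library and 14 were tested. In edgeR 0 passed (adjusted p from 0.109 to 0.938), 5 had an unadjusted p under 0.05, all higher in laminin, and DESeq2 called 2, of which Ece1 was 1. Over all genes tested, 6.7% were higher at that unadjusted p, and DESeq2 called 209 of 10789. The log2 differences of the listed peptidases were above 0 for 13 of 14, with a median of 0.28, against 51.7% and 0.0094 over all genes tested. Ece1, the endothelin-converting enzyme and a zinc peptidase related to neprilysin, averaged 281 and 343 CPM in collagen and laminin. Its ranges did not overlap (log2 difference 0.29, SE 0.081, edgeR adjusted p = 0.208). Naaladl1 was at 1.81 and 3.89 CPM (1.13, SE 0.35). The abundant sheddase Adam10 (456 and 514 CPM) gave 0.17 (SE 0.20), and the carboxypeptidase Cpd (293 and 389 CPM) gave 0.41 (SE 0.25). Of 10 peptidases that act mainly inside the cell, 0 passed in edgeR. An unadjusted p under 0.05 was seen for 2 of them, 1 higher and 1 lower, against 11.7% of all genes tested. The median log2 difference of these 10 was 0.049. The lysosomal Dpp7 gave 0.36 (SE 0.13), the puromycin-sensitive aminopeptidase Npepps 0.10 (SE 0.13), and Dpp3 and Lap3 -0.12 (SE 0.12) and 0.059 (SE 0.098). The lists overlap, so that a gene can be counted in more than 1 of them. Cpm is in the kinin and surface lists, Prep and Thop1 in the renin-angiotensin and intracellular ones, and Lap3 in the intracellular and glutathione ones. Counts and calls of different lists are therefore not independent.

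**Figure D4:**
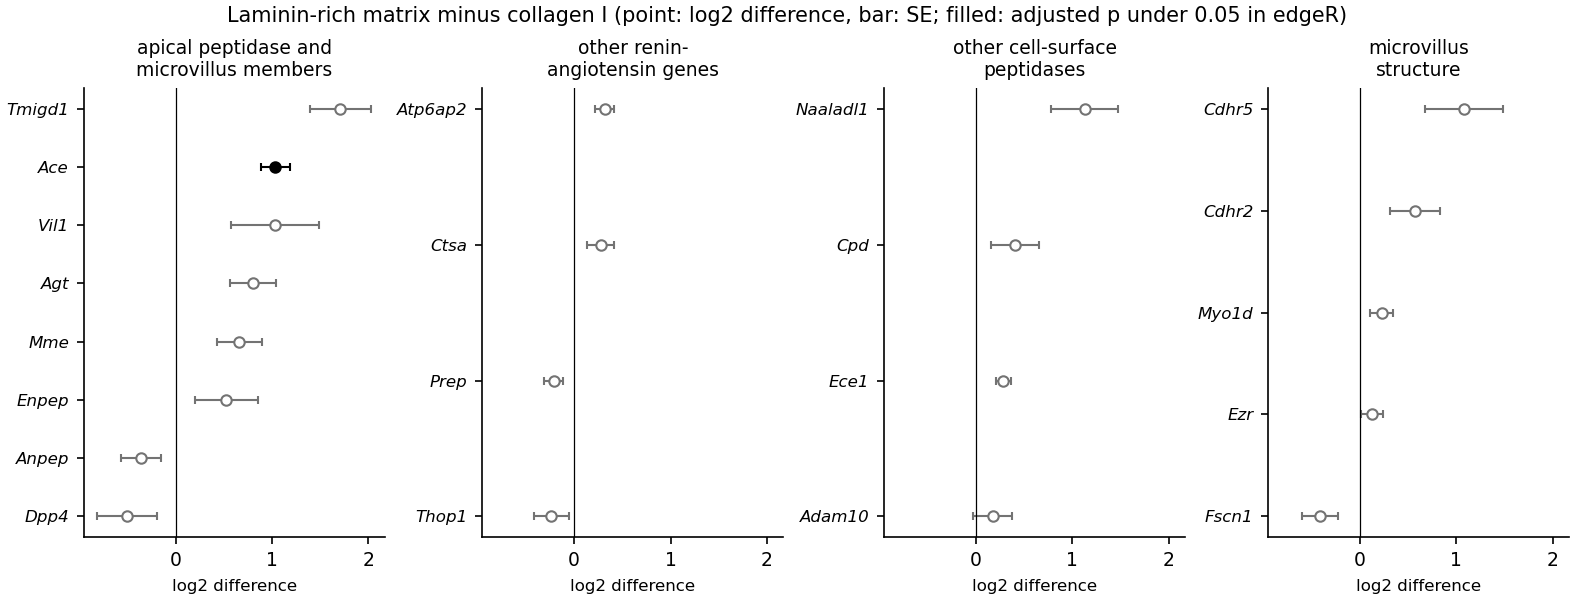
Log2 difference (laminin minus collagen) with its SE for tested genes, in panels for the 8 genes and for the genes named here from 3 lists of related genes, filled where the edgeR adjusted p was under 0.05. Ace, at 1.04, is the filled point, and Ece1, at 0.29, is open. The 8 genes were chosen with this contrast known, so the filling of their points is a description.

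Microvillus structure was represented by 23 listed genes beside Vil1, of which 21 were in the table and 14 were tested. In edgeR 0 passed (adjusted p from 0.332 to 0.860), 3 reached an unadjusted p under 0.05, 2 higher and 1 lower, and DESeq2 called 0. Their median log2 difference was 0.21, with 11 of 14 above 0, against 0.0094 and 51.7% over all genes tested. At an unadjusted p under 0.05 were 11.7% of all genes tested. The intermicrovillar cadherin Cdhr5 was at 2.12, 4.64, 3.04, 9.36 and 4.97 CPM in collagen and at 8.68, 15.1, 8.31, 4.05 and 14.3 CPM in laminin (log2 difference 1.08, SE 0.41). As for Tmigd1 and Vil1, its lowest laminin library was replicate 4. Its partner Cdhr2 gave 0.58 (SE 0.26) and was also lowest there among the laminin libraries. Ezrin (Ezr), which ties actin to the apical membrane, gave 0.13 (SE 0.11) and Myo1d 0.23 (SE 0.12). Fscn1, an actin bundler of filopodia, averaged 474 and 357 CPM in collagen and laminin (-0.41, SE 0.18).

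Other apical hydrolases gave 4 tested genes of 12, and none passed (0 in edgeR and DESeq2). At an unadjusted p under 0.05 in edgeR, 1 was higher in laminin, as were 6.7% of all genes tested. The median log2 difference of the 4 was 0.091. Nt5e, the ecto-nucleotidase that makes adenosine, was at 64.6 and 89.8 CPM (0.47, SE 0.18). Entpd2, which hydrolyses ATP outside the cell, gave 0.31 (SE 0.16) and Enpp1 -0.13 (SE 0.18). Pdzk1ip1, a small membrane protein and not a hydrolase, gave -0.53 (SE 0.70) and is among the 4 counted. Among genes of glutathione handling beside Ggt1 and Anpep, 6 of 9 were tested. In edgeR 0 passed, and 1 was higher at an unadjusted p under 0.05, as were 6.7% of all genes tested. Gclc, the catalytic subunit of the first enzyme of glutathione synthesis, gave 0.28 (SE 0.0997), Gss 0.086 (SE 0.20) and Chac1, which degrades glutathione in the cytosol, -0.18 (SE 0.20).

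Transcription factors known to act on brush border genes were tested for 6 of 8. In edgeR 0 passed, 3 had an unadjusted p under 0.05, all higher in laminin, and their median log2 difference was 0.28. Over all genes tested, 6.7% were higher at that unadjusted p, and the median log2 difference was 0.0094. Hnf4a was at 62.7, 80.2, 68.3, 101 and 87.6 CPM in collagen and at 113, 114, 132, 62.0 and 125 CPM in laminin (log2 difference 0.45, SE 0.19, edgeR adjusted p = 0.390). Laminin replicate 4 was the lowest of all 10 libraries, and the other 4 laminin libraries were above every collagen library. Cdx2 was at 22.2, 24.5, 28.7, 40.5 and 30.6 CPM in collagen and at 76.0, 44.7, 38.7, 20.5 and 44.2 CPM in laminin (0.62, SE 0.28, edgeR adjusted p = 0.419), again lowest in laminin replicate 4. Gata6, an endodermal factor, gave 0.11 (SE 0.11). Thus Hnf4a, Cdx2, Tmigd1, Vil1, Cdhr2 and Cdhr5 each had their lowest laminin value in replicate 4, a pattern picked out after the values were seen. Of the 10789 genes tested, 2507 had their lowest laminin value there. The other genes of these lists were not counted, so nothing is read from the set.

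With group means removed, so that the matrix difference plays no part, the genes most like Ace over the 10 libraries included Rbm48 (Pearson r 0.90, Spearman rho 0.53), Gprc5b (0.89 and 0.68), Vegfd (0.89 and 0.72) and Zfand2a (0.88 and 0.61). These are among the first 5 of 9122 genes ranked on r, so high values were to be found, and the libraries share depth and composition effects. Without laminin replicate 1 and collagen replicate 4, the libraries farthest from the median for Ace, r was 0.49 for Rbm48, 0.72 for Gprc5b, 0.45 for Vegfd and 0.31 for Zfand2a. Leaving out the libraries farthest for Ace narrows its range, which by itself can lower r. The fall in r therefore does not decide how far the likeness rests on those 2 libraries. Rbm48, Gprc5b, Vegfd and Zfand2a did not pass between matrices, with edgeR adjusted p from 0.698 for Zfand2a to 0.962 for Rbm48. Measured the same way over all 10 libraries, Mme had r = 0.60 with Ace, Agt 0.56, Enpep 0.39, Anpep 0.28, Dpp4 0.27, Vil1 -0.26 and Tmigd1 -0.33, given as a description. For these genes r was not computed without laminin replicate 1 and collagen replicate 4. In laminin replicate 1, Ace, Mme and Agt lay at -0.46, -0.61 and -0.66 log2 units from the laminin mean.

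Of the keratins listed as cholangiocyte markers, the cells carried Krt19, with means of 1089 and 998 CPM in collagen and laminin, and Krt8 and Krt18 alongside. Krt7, the other keratin listed, was far less abundant, with means of 6.80 CPM in collagen and 3.34 CPM in laminin. Of 19 cholangiocyte markers, 5 averaged under 1 CPM. The summed markers ran from 4096 to 6147 CPM in collagen and from 4294 to 5871 CPM in laminin, a sum carried mostly by the keratins and Spp1. Individual markers differed more than the sum. Of 13 tested, 0 passed in edgeR, 4 had an unadjusted p under 0.05, all higher in laminin, and DESeq2 called 2, Muc1 and Slc10a2. Over all genes tested, 6.7% were higher at that unadjusted p, and DESeq2 called 209 of 10789. Muc1, an apical mucin, averaged 32.2 and 72.2 CPM (log2 difference 1.17, SE 0.28, edgeR adjusted p = 0.123). Slc10a2, the apical bile acid transporter, averaged 3.99 and 9.13 CPM, with ranges that did not overlap (1.21, SE 0.30, edgeR adjusted p = 0.145). The water channel gene Aqp1 gave 0.93 (SE 0.29) and E-cadherin (Cdh1) 0.42 (SE 0.19). Muc1, like Agt, was highest in laminin replicate 4.

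Fibroblasts and pericytes can carry Anpep, Enpep, Mme and Dpp4. Their 16 markers summed to 775 to 935 CPM in collagen and 853 to 997 CPM in laminin, mostly Fbln2, and Thy1, Rgs5 and Lrat were at 0 in every library. Single members differed in both directions. In edgeR 0 of 7 passed, 3 had an unadjusted p under 0.05, 2 higher and 1 lower, and DESeq2 called those 3. Over all genes tested, 6.7% were higher and 4.95% lower at that unadjusted p, and DESeq2 called 209 of 10789. Dcn, a matrix proteoglycan, averaged 8.101 and 3.47 CPM, with laminin below collagen in every library (log2 difference -1.20, SE 0.23, edgeR adjusted p = 0.0697). Pdgfra, a growth factor receptor of fibroblasts, averaged 4.01 and 9.30 CPM (1.20, SE 0.34, edgeR adjusted p = 0.203). Cspg4, a pericyte proteoglycan, averaged 129 and 170 CPM, with every laminin library above collagen (0.39, SE 0.093, edgeR adjusted p = 0.128). Pdgfrb, too low to test, averaged 0.620 and 3.44 CPM, again without overlap and higher in laminin. Leukocyte markers summed to 7.91 to 15.5 CPM in collagen and 6.24 to 11.1 CPM in laminin, with Adgre1, Ms4a1 and Tyrobp at 0. Of 2 tested, 0 passed in edgeR and DESeq2. Cd74, at 5.62 and 3.31 CPM on average, was the 1 with an unadjusted p under 0.05 in edgeR (-0.76, SE 0.32). The part of such cells in the results above was not tested.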

How the data were processed

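The authors deposited raw read counts, 1 column per library and 1 row per gene symbol, with no normalization recorded. GRCm38 (mm10) and DESeq2 are named in the submitters' processing notes. Aligner, counting tool, use of strand and gene annotation: not given in the sources used here. Per the labels' protocols, RNA came from spheroids freed of matrix in the cold, and stranded poly(A) libraries were built from 30 ng of it. Totals of 4424725 to 8129979 counts limit genes of a few reads to wide counting error.

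Genes kept by filterByExpr were scaled with TMM factors and compared in edgeR 4.0.16 (R 4.3.3) by a two-sided quasi-likelihood F test on matrix alone, with Benjamini-Hochberg adjustment over 10789 genes and a threshold of 0.05. The SE is the log2 difference over the square root of F. CPM uses TMM-scaled library sizes, and log2 CPM a prior count of 2. Code letters were compared in a fit with 1 term per letter. Lengths are those of the longest transcript in GENCODE M21, which matched 18338 of 18407 symbols. Promoter windows of 250 bases are from RefSeq GRCm38.p6.

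The 9 genes, lists, motifs and tests were chosen with earlier results of these data known. Named were the 9, list genes past the threshold, per list the 3 most abundant per length and the 3 with the smallest p, and the 5 most like Ace with a mean of at least 10 CPM. Genes named for laminin replicate 4, for a count of 0 or as markers fall outside that rule. A few genes that the rule names are not reported here, though they stay in the counts of their lists. The steps were tested on simulated data. Alternatives were DESeq2 1.42.0, limma-voom (limma 3.58.1), DESeq2 size factors, library size only, 2 other filters, the replicate block, a spline trend on length and GC content (5 degrees of freedom each) removed, and each library or code letter left out. DESeq2 calls among the marker lists were added after seeing the data.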

Additional observations from a re-analysis of the deposited data

Results flagged for a closer look

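Within each group, the highest and lowest library were compared with the spread of the 5 (Dixon's test, 95% level), for 26 sets of values. In 6 of them 1 library stood apart, where chance sets 1 library apart in about 5% of such sets. Agt in collagen was at 2.55 log2 CPM in replicate 2, with the next library at 3.25. Anpep in collagen was at 5.18 log2 CPM in replicate 1, next to 5.58. Mme in laminin was at 3.81 log2 CPM in replicate 1, next to 4.54. In laminin replicate 4, Dpp4 stood above the others at 2.40 log2 CPM, next to 1.26, and Tmigd1 below them at 2.13, next to 3.53. The endothelial marker sum in laminin, nearly all Flt1, was at 9.37 on the log2 scale of summed CPM in replicate 2, next to 9.14.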

How the results depend on the processing

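The 16 genes called between matrices became 209 with DESeq2, 29 with no filter on low counts, 104 with the length and GC trend removed, and 2083, 5, 1 and 5 without code letters B, D, E and F. Leaving out 1 library gave 0 to 64, with 0 called without collagen replicate 3 or 5 or laminin replicate 2, and 64 without laminin replicate 1. Correlations of the deviations of libraries of the same number ran from -0.327 to 0.483. They were not compared with those of libraries of different number, so they do not decide whether the libraries were paired. The replicate block called 0 genes, with 1049 at an unadjusted p under 0.05 in edgeR. The 1 of the 9 called, Ace, became 2 with DESeq2, with no filter, with the trend removed and without letter B, 0 with the block and without letter D or E, and 0 to 2 with 1 library left out. Without letter F the 1 called was Tmigd1. These counts of the 9 are a description, since the matrix contrast led to their choice. For D minus B the count of 1 became 0 with the trend removed and 0 to 2 with 1 library left out. For the lists, each with 0 called, renin-angiotensin genes gave 1 with DESeq2, 2 with the trend removed, 5 without letter B and 0 to 1 with 1 library left out. Other surface peptidases gave 2, 1, 5 and 0 to 1 in the same order. Kinin genes gave 1 and microvillus genes 2 without letter B, and other apical hydrolases 0 to 1 with 1 library left out. The cause was not tested. The log2 difference turned its sign without letter B for Ctsa (-0.016), Lap3 (-0.040), Enpp1 (0.19) and Gss (-0.27), and without letter D for Thop1 (0.032), Adam10 (-0.098), Npepps (-0.044) and Dpp3 (0.0078). It did so without letter E for Lap3 (-0.055), Myo1d (-0.014), Enpp1 (0.026) and Gss (-0.11), without letter F for Pdzk1ip1 (0.019) and Enpep (-0.0058), and without collagen replicate 1 for Gss (leaving out 1 library gave -0.036 to 0.236). The other 7 tested genes of the 9 kept their sign in all 22 alternatives, though Anpep came to -0.013 and Dpp4 to -0.030 without letter E. The alternatives of the letter comparisons were chosen after seeing the data. At these depths Ggt1 could not be compared, and Dpp4 and Vil1 rest on few reads.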
